A study of Mus musculus with 9 samples.

Results

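Mcts2, Nap1l5, Zrsr1, Nnat and Peg13 are imprinted mouse genes that are known to sit in, or beside, an intron of a larger host gene. The gene table used here gave only the ends of genes, and all 5 lay within the span of their host. The 5 genes were taken by name, and for each the CpGs in the gene and 1 kb either side with at least 1 read in all 9 libraries were used. They are 5 of 23220 gene windows tested in the same way, and their windows hold 174 of the 1096949 CpGs read in every library. The samples were Abl.1 cells, an immortalised B cell line grown from 1 clone. The mouse it came from was female and an F1 of 129S1/SvImJ x CAST/EiJ, so every library carries the same cross of parental genomes. Cells were taken after 2 days with 1% DMSO (2 libraries) or with 5-aza-dC, of which 2 libraries had 0.2 µM, 3 had 2 µM and 2 had 10 µM. The drug 5-aza-dC (decitabine) is a cytidine analogue that is built into replicating DNA and traps DNA methyltransferases. Methylation was read by reduced representation bisulfite sequencing (RRBS), which samples CpG-rich fragments, and the labels name the replicates library preparations, so p-values measure the spread between these libraries, which may be technical.

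An imprinted gene is expressed from the copy inherited from one parent. At these genes a CpG-rich promoter carries methylation from the egg, the maternal copy is silent and the paternal copy is transcribed. Cells that keep the imprint on one parental copy and leave the other free are therefore described by a level near 50% at the imprinted region. Several such genes are retrogenes, intronless copies of an mRNA that landed inside another gene, and the host often uses different transcript ends on the maternal and the paternal chromosome. The parental alleles were not separated in these files, so a level is an average over both copies and over all cells.

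The libraries held 8590777 to 16495423 reads at CpGs, and the median CpG had 3 to 5. A read that spans several CpGs is counted at each of them, so the counts below are CpG calls, not molecules. Intervals on calls (95% Wilson) cover counting error only and are too narrow for that reason. In the 5 windows the median CpG had 1 to 17 reads in a library. As a check of the cell type, 4 of 5 listed B lineage genes were covered, with a median DMSO level of 8.87% (0.649% to 23.9%), and 3 of 5 listed T lineage genes, with a median of 76.7% (10.7% to 83.8%), but no RNA was measured.

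The measured CpGs are shown first on the promoters they fall in, because they decide which part of each gene the levels describe. The sequences are RefSeq promoters of GRCm38.p6, 250 bases before to 50 after a transcript start, 5′ to 3′ on the gene's strand, with the CpGs read in all 9 libraries in capitals. The first is the promoter of Mcts2, at chr2:152686898-152687197 on the plus strand. The second is that of Zrsr1, at chr11:22971755-22972054 on the plus strand. The third is a second start of the host Commd1 that lies inside Zrsr1, at chr11:22972817-22973116 on the minus strand. The last is that of Nnat, at chr2:157559828-157560127 on the plus strand.
Mcts2: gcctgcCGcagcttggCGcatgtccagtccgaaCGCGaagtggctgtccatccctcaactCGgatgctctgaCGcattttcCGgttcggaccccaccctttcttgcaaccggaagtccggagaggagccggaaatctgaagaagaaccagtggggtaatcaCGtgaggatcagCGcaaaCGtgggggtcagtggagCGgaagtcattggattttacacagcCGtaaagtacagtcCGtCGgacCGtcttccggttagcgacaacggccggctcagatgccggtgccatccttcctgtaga
Zrsr1: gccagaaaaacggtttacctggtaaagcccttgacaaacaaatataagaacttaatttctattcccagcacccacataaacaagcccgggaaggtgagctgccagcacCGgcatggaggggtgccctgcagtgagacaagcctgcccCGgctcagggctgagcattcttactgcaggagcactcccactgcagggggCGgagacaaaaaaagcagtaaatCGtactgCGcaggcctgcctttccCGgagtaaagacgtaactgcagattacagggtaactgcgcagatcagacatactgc
Commd1 start inside Zrsr1: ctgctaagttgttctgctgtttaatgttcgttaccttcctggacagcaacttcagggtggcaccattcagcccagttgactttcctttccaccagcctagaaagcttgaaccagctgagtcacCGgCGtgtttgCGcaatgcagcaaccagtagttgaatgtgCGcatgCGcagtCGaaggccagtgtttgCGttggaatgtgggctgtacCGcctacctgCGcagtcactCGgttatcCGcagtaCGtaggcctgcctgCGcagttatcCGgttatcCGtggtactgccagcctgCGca
Nnat: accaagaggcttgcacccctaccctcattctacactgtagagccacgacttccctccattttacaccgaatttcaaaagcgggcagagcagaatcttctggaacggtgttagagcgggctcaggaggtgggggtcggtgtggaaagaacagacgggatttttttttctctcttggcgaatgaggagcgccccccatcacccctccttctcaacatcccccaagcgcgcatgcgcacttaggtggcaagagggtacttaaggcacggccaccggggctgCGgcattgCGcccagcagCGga

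Of the CG letters in these sequences, 15 of 25 were measured in Mcts2, 6 of 10 in Zrsr1, 16 of 17 in the inner Commd1 start and 3 of 17 in Nnat. The 6 promoter CpGs of Zrsr1 and the 15 of Mcts2 are methylated in DMSO, at 93.2% ± 1.28 (SD, n = 2) and 98.9% ± 1.55, and the 3 of Nnat had 100% on few calls (3 to 18 over all libraries). Those of the inner Commd1 start are uneven between the DMSO libraries, at 4.62% and 51.3%. The Nap1l5 promoter has 17, none of them read in every library, and no promoter of Peg13 was used here. The letters TGCCGC, to which the imprint-protecting zinc finger protein ZFP57 is known to bind when methylated, were searched on both strands (GCGGCA on the other). They occur 1 time in the Mcts2 promoter, 2 times in that of Nap1l5 and 1 time, on the other strand, in that of Nnat, and they are not in the 300 bases shown for Zrsr1. Of 32851 promoters in the table, 11.6% hold them at least 1 time. A match describes the letters alone.

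The DMSO cells, kept in the vehicle, were examined for how far each gene lies from 50%. Mcts2, Nap1l5 and Nnat were almost fully methylated, Peg13 lay above 50%, and Zrsr1 lay near 50% only as the mean of unlike parts and unlike libraries. Mcts2, which encodes a factor of the translation machinery, had 97.0% in DMSO replicate 1 (interval 93.6% to 98.6%, 200 calls) and 97.1% in replicate 2 (85.1% to 99.5%, 34 calls), 47.0 points above 50%. Replicate 2 had a median of 1 read per CpG there. Nap1l5, of the nucleosome assembly protein family, had 98.1% (93.2% to 99.5%, 103 calls) and 100% (93.9% to 100%, 59 calls), 49.0 points above 50%. No CpG of Nap1l5 had over 7 reads in a DMSO library.

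Nnat encodes neuronatin, a small membrane protein known from the developing brain. It had 96.8% (93.1% to 98.5%, 186 calls) and 100% (96.2% to 100%, 97 calls), 48.4 points above 50%. Peg13, a long non-coding RNA gene, had 64.4% (59.0% to 69.4%, 320 calls) and 67.7% (60.2% to 74.4%, 164 calls), 16.0 points above 50%. Zrsr1, which encodes an RNA splicing factor related to U2AF, had 32.6% (28.5% to 37.0%, 460 calls) in replicate 1 and 61.2% (55.1% to 67.0%, 255 calls) in replicate 2. Its mean lay -3.11 points from 50%, but the libraries fell on opposite sides of it, at -17.4 and 11.2 points. Over all gene windows, 14.4% had a DMSO level from 35% to 65% and 8.21% had 90% or above, while 1 and 3 of these 5 genes did.

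**Figure D1:**
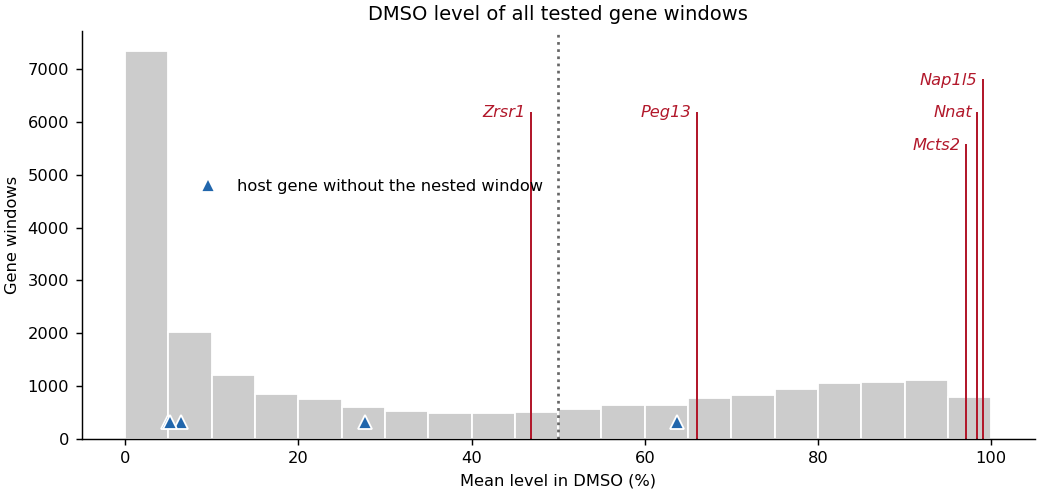
Number of gene windows (y axis) by mean DMSO methylation level in percent (x axis, bins of 5 points) for all 23220 windows, with red lines at the 5 nested genes and blue triangles at their hosts without the nested window. Mcts2, Nap1l5 and Nnat stand at 97.0%, 99.0% and 98.4%, Peg13 at 66.0% and Zrsr1 at 46.9%, beside the dotted line at 50%.

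With both DMSO libraries summed, 101 of the 174 CpGs had 90% or above and 14 had 35% to 65%. A further 20 lay from there to 90%, 27 from 10% to 35% and 12 at 10% or under. In Mcts2 23 of 25 CpGs had 90% or above, in Nap1l5 16 of 17 and in Nnat 38 of 42, and none of the CpGs of these 3 genes lay at 65% or under. CpGs from 35% to 65% occurred in Zrsr1 (8 of 51) and Peg13 (6 of 39). The median pooled DMSO depth was 7 to 13 reads per CpG, so the class of a single CpG is imprecise.

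Levels along the genes were taken over runs of CpGs whose neighbours lie at most 100 bases apart. In Mcts2 (chr2:152687148-152687946, inside the 39247 bases of H13 on the same strand) all 25 CpGs formed 1 run of 329 bases that ends just before the gene (from -335 to -7 bases). The level there thus describes the promoter, and no CpG of the gene body was read in every library. In Nap1l5 (chr6:58905233-58907126, on the minus strand within Herc3, which is on the plus strand) the 17 CpGs formed 1 run inside the gene, at chr6:58906634-58906866, in the part near its transcript start.

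Zrsr1 (chr11:22972005-22976496, on the plus strand within Commd1, which is on the minus strand) changed in level within its first kilobase. The 6 CpGs before its start had 94.1% and 92.3% in the DMSO libraries, and the 7 CpGs from 122 to 259 bases inside had 96.8% and 97.2%. The next 35 CpGs, from 529 to 987 bases inside, had 15.7% in DMSO replicate 1 and 54.5% in replicate 2, and the last 3 CpGs had 15.6% and 35.3% (32 and 17 calls). The 35 CpGs span the inner start of Commd1 shown above. The spread of the whole window between DMSO libraries thus came from the inner runs, while the runs at the start agreed within 2 points of each other.

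Nnat (chr2:157560078-157562525, on the plus strand within the 10000 bases of Blcap, which is on the minus strand) had 4 runs. Their DMSO means were 100%, 97.5%, 100% and 100%, from position -494 to position 1780, counted in bases from its start. Peg13 (chr15:72805602-72810324, within Trappc9) had 3 runs. The 5 CpGs beyond its lower-coordinate end had 96.6% ± 4.88 in DMSO (SD, n = 2) and the 6 CpGs beyond its higher-coordinate end 86.9% ± 7.59. The 28 CpGs inside, near the latter end, had 60.9% ± 3.45. That run held 2 stretches when CpGs were joined at 50 bases, a choice made after the data were seen. The 13 CpGs at chr15:72809700-72809822 had 90.2% ± 7.05, and the 15 CpGs at chr15:72809880-72810087 had 28.8% ± 7.90. The run's mean of 60.9% thus joined a highly and a lowly methylated stretch.

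**Figure D2:**
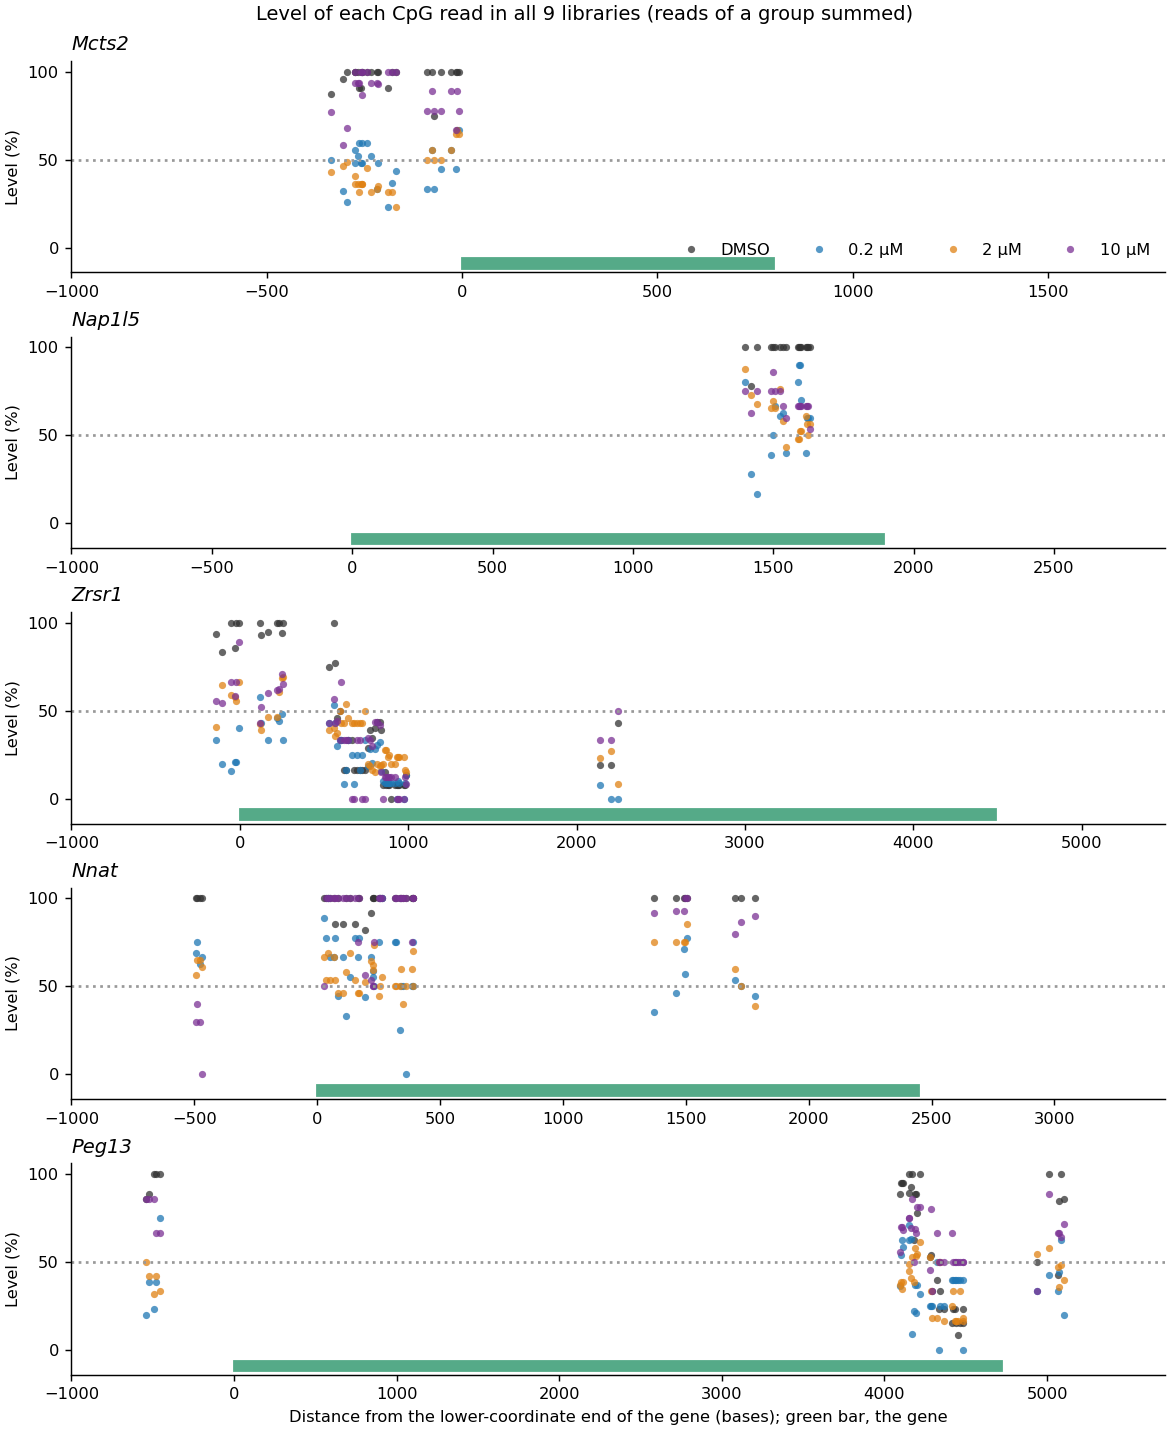
Methylation level in percent (y axis) of each CpG read in all 9 libraries against its distance in bases from the gene's lower-coordinate end (x axis), 1 panel per gene, with the reads of a group summed and colours for DMSO, 0.2, 2 and 10 µM. DMSO points lie near 100% in Mcts2, Nap1l5 and Nnat, and fall from above 90% to under 50% within Zrsr1 and within Peg13.

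The lowest dose, 0.2 µM, lowered 4 of the 5 genes against DMSO, where 48.6% of all gene windows were lower by the same test (binomial model moderated with limma, adjusted p under 0.05 over all windows). Mcts2 stood at 42.7% and 48.8% and Nap1l5 at 58.3% and 49.4% in the libraries at 0.2 µM. Nnat stood at 56.8% and 66.0%, and Peg13 at 48.0% and 36.2%. In these 4 genes every library at 0.2 µM lay under both DMSO libraries. How many of all gene windows separate in this way, here or at the other doses, was not counted. Nor was the share called lower, at any dose, among windows that start as high as these genes. The median window had 21.1% in DMSO, so it had less room to fall. Mcts2 fell by 51.3 points (adjusted p = 0.000248), Nap1l5 by 45.1 points (0.000966), Nnat by 37.0 points (0.000388) and Peg13 by 23.9 points (0.00464). Zrsr1 stood at 31.2% and 22.7%, 19.9 points under its DMSO mean (change -19.9, adjusted p = 0.0625), with both libraries under both of DMSO. The change of Zrsr1 turned on the DMSO library used: it was -34.2 points (adjusted p = 0.00666) without DMSO replicate 1 and -5.65 points (0.563) without DMSO replicate 2. The limma-moderated adjusted p of Peg13 was 0.0697 without 0.2 µM replicate 2, and its change was -40.3 points (0.0253) over CpGs with at least 5 reads per library. Those CpGs leave out its lowly methylated stretch (28.8% in DMSO). The DMSO level of Peg13 then lay 41.2 points above 50%, so the larger fall describes another part of the window.

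At this dose Mcts2 lay -4.25 points from 50%, Nap1l5 3.88 points and Peg13 -7.87 points. Nnat lay 11.4 points above 50%, and Zrsr1 lay -23.0 points from it. A level near 50% after treatment does not show a kept imprint, because the parental alleles were not separated. The gene windows at 90% or above in DMSO changed by a median of -57.2 points at 0.2 µM. The level of Peg13 also joined libraries at 48.0% and 36.2%, and stretches that were unlike in DMSO. None of the 5 genes was higher than DMSO at any dose by the limma-moderated test, and all 5 changes were negative at each dose. Mcts2, Nap1l5 and Nnat stood at 97.0%, 99.0% and 98.4% in DMSO, so they had next to no room to rise. The sign of Zrsr1 at 2 and 10 µM and of Peg13 at 10 µM turned with the library or setting, as given below. Of all gene windows, 0.0431% were higher at 0.2 µM, 0.134% at 2 µM and 0.185% at 10 µM.

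At 2 µM the same count held, with 4 of the 5 genes lower than DMSO, against 33.1% of all gene windows. Mcts2 had 58.7%, 33.3% and 35.3% in the 3 libraries, a fall by 54.6 points (limma-moderated adjusted p = 0.000257). Nap1l5 had 72.9%, 59.2% and 43.8% and fell by 40.4 points (0.00165). In Nnat the libraries had 72.7%, 50.2% and 58.4%, a fall by 38.0 points (0.000407). Peg13 had 33.9%, 47.4% and 44.1% and fell by 24.2 points (0.00380). Over CpGs with at least 5 reads, which leave out its lowly methylated stretch, it fell by 44.5 points (0.0158). Replicates differed widely at 2 µM, most in Mcts2 (SD 14.1) and Nap1l5 (SD 14.5). None overlapped DMSO in these 4 genes, for which the share over all gene windows was again not counted.

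Zrsr1 at 2 µM had 33.1%, 33.4% and 34.5%, which lies above its DMSO replicate 1 and below replicate 2. Its change of -13.2 points had an adjusted p of 0.267, and it was 1.07 points without DMSO replicate 2 and -27.5 points (adjusted p = 0.0221) without DMSO replicate 1. Over CpGs with at least 5 reads it was -22.4 points (0.0334). Around its start the means were under DMSO at each dose, while the means of the inner run ranged from 24.2% to 35.1% over the groups. The 6 CpGs before the gene went from the 93.2% of DMSO to 25.9% ± 9.25 (SD, n = 2) with 0.2 µM. They had 58.5% ± 5.15 (SD, n = 3) with 2 µM, and with 10 µM 65.5% ± 3.81 (SD, n = 2). The 7 CpGs after the start went from 97.0% to 42.7%, 51.5% and 61.0%. The 35 inner CpGs had 35.1% ± 27.4 in DMSO, 24.2% ± 11.2 with 0.2 µM, 26.4% ± 1.15 with 2 µM and 34.6% ± 13.4 with 10 µM (SD). In all groups but 2 µM these means joined libraries that lay far apart. They do not show that the inner run kept its level. These runs were not tested singly.

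**Figure D3:**
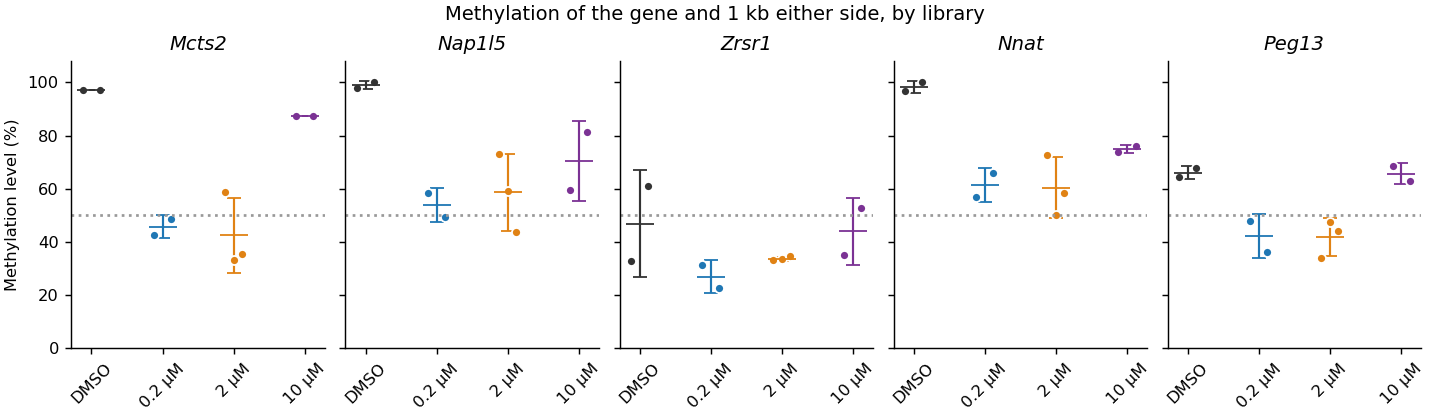
Methylation level in percent (y axis) of each gene and 1 kb either side in the 4 groups (x axis), with a point per library and a bar for the group mean ± SD. In Mcts2, Nap1l5, Nnat and Peg13 the libraries at 0.2 and 2 µM lie below both DMSO libraries, and in Zrsr1 the DMSO libraries lie at 32.6% and 61.2%.

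At the highest dose, 10 µM, Nap1l5 and Nnat were lower than DMSO and the other 3 genes did not pass. Nap1l5 had 59.7% and 81.2% and Nnat had 73.8% and 75.9%. They fell by 28.6 points (limma-moderated adjusted p = 0.0315) and by 23.5 points (0.0208), so that 2 of the 5 genes passed, against 6.70% of all gene windows. The windows at 90% or above in DMSO, nearer to these 2 genes in starting level, changed by a median of -24.0 points at 10 µM. Their share called lower was not counted. Nap1l5 also missed the threshold without either 0.2 µM library (0.0567 and 0.0556). Neither passed when any single DMSO or 10 µM library was left out, with adjusted p-values from 0.0519 to 0.188 for Nap1l5 and 0.0684 to 0.150 for Nnat. Nap1l5 missed it with a window minimum of 1 read (0.0640) and with unweighted levels (0.199). Nnat missed it with a change of -40.9 points over CpGs with at least 5 reads (0.0615), -17.8 without flanks (0.0826) and -14.9 with unweighted levels (0.323). Mcts2 had 87.2% and 87.3%, a change of -9.79 points with an adjusted p of 0.216, with both libraries under both of DMSO. Peg13 had 68.5% and 62.9% (change -0.328 points, adjusted p = 1.00) and Zrsr1 35.1% and 52.7% (-2.99 points, 0.936), and both overlapped DMSO. The change of Zrsr1 was 11.3 points without DMSO replicate 2 and 5.82 without 10 µM replicate 1. That of Peg13 was 1.33 points without DMSO replicate 2, 2.44 without 10 µM replicate 2, 3.60 without the flanks and 1.08 with unweighted levels. Over CpGs with at least 5 reads, which leave out its lowly methylated stretch, it was -23.4 points (limma-moderated adjusted p = 0.374).

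Read against 0.2 µM, 10 µM was higher in Mcts2 by 41.5 points (adjusted p = 0.00230) and in Peg13 by 23.6 points (0.00885), 2 of 5 genes, where 40.9% of all gene windows were higher and 0.0215% lower. The differences in Nap1l5 (16.5 points, adjusted p = 0.248), Zrsr1 (16.9 points, 0.106) and Nnat (13.5 points, 0.126) did not pass. That of Zrsr1 passed when either DMSO library was left out (0.0397 and 0.0395). That of Peg13 did not pass without 0.2 µM replicate 2 (0.0932), without 10 µM replicate 1 (0.0602) or over CpGs with at least 5 reads (0.406). The CpGs with at least 5 reads leave out its lowly methylated stretch. Whether the genes differ from each other in this response was not tested. Within Nnat the 10 µM libraries were uneven. The 4 CpGs from position -494 to -469 before the start (17 and 18 calls) had 29.4% and 27.8%, while the 5 CpGs from 1370 to 1506 bases inside (36 and 27 calls) had 94.4% and 96.3%, from 100% in DMSO in both places. At most 5 reads covered a CpG of the outer run in either library.

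Peg13 was uneven along its length too. Its 5 outer CpGs at the lower-coordinate end went from 96.6% in DMSO to 34.2% ± 42.9 (SD, n = 2) with 0.2 µM, a mean of libraries far apart on 9 to 32 calls, and had 81.2% ± 15.8 with 10 µM. The 6 outer CpGs at the other end went from 86.9% to 40.7%, 48.3% and 64.0% at the rising doses. Of the stretches inside, the 13 CpGs that were high in DMSO went to 47.4%, 46.6% and 66.5%. The 15 CpGs that were low in DMSO (28.8%) had 50.0% and 5.88% in the libraries at 0.2 µM, and 31.1% and 93.3% in those at 10 µM (61 and 30 calls). At 2 µM they had 32.4%, 14.6% and 34.3%. With 0.2 and 2 µM the means were thus well under DMSO in the runs with high DMSO levels. The low stretch averaged 27.9%, 27.1% and 62.2% with the rising doses. Its closeness to DMSO with 0.2 µM came from averaging libraries on either side of DMSO, and it had less room to fall. The average with 10 µM also joined libraries that lay far apart. These runs were not tested singly.

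In Mcts2 and Nnat the mean of every run was under DMSO at 0.2 and 2 µM, though runs at or close to 100% in DMSO had next to no room to rise. In Mcts2 the 17 CpGs farther from the start, at chr2:152686813-152686980, had 96.7% in DMSO, 44.8% ± 3.51 (SD, n = 2) with 0.2 µM and, with 2 µM, a mean that differed from DMSO by -61.7 points. The 8 CpGs nearest to it, at chr2:152687059-152687142, had 97.9%, 71.9% ± 39.8 and 59.3% ± 18.6, on 8 to 71 calls. In Nnat the 30 CpGs that follow the start went from 97.5% to 64.1% with 0.2 µM and 61.5% with 2 µM, and the last 3 CpGs from 100% to 49.5% and 47.9%.

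A count on fewer effective reads, added after the data were seen, averaged the reads of a run over its CpGs. A read over several CpGs thus weighed less, but separate fragments of a run were merged too, and long runs lost weight against short ones. The changes themselves moved with it in genes of several runs. At 0.2 µM they were -29.9 points in Zrsr1, -37.0 in Peg13 and -41.7 in Nnat, against -19.9, -23.9 and -37.0 in the main fit. By the run-averaged count 4 of the 5 genes were lower at 0.2 µM (Mcts2 0.0400, Zrsr1 0.0344, Nnat 0.00543 and Peg13 0.0415 as adjusted p), and Nap1l5 was not (0.0602), where 47.5% of all gene windows were lower. At 2 µM only Nnat passed (0.0152), with 0.0608 for Mcts2, 0.0676 for Peg13, 0.105 for Nap1l5 and 0.279 for Zrsr1, where 19.4% of all gene windows passed. At 10 µM none of the 5 passed in this limma-moderated model, 1 had an unadjusted p under 0.05, and 0.0172% of all gene windows passed. None was higher at 10 µM than at 0.2 µM by it, with 2 at an unadjusted p under 0.05, where 35.1% of all gene windows were higher.

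The changes were set beside those of all windows. The median change over all 23220 windows was -9.09, -2.89 and -0.295 points at the 3 rising doses. For the 5 genes it was -37.0, -38.0 and -9.79 points. The median window had 21.1% in DMSO, so the 1906 windows at 90% or above in DMSO are the nearer match for Mcts2, Nap1l5 and Nnat. Their lower and upper quartiles were -65.9 and -45.7 points for 0.2 µM. For 2 µM they were -49.0 and -37.7 points, and for 10 µM -31.5 and -16.8 points. Mcts2 lay between them at 0.2 µM, below both at 2 µM and above both at 10 µM. Nap1l5 (-45.1) and Nnat (-37.0) lay above both at 0.2 µM and between them at the other doses. This is a description with no test.

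**Figure D4:**
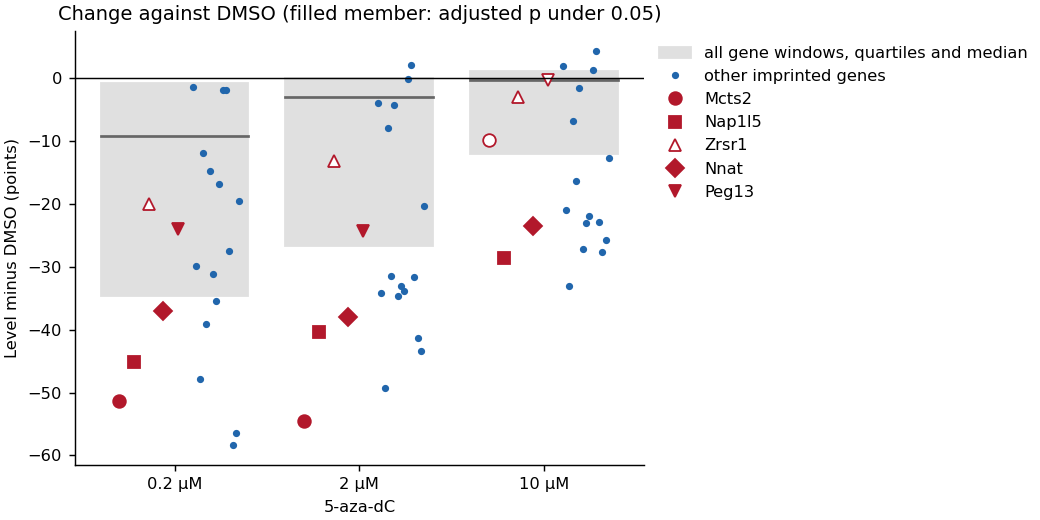
Change in methylation level against DMSO in percentage points (y axis) at 3 doses (x axis), with red symbols for the 5 nested genes (filled where the adjusted p is under 0.05), blue points for 15 other imprinted genes and grey boxes from the lower to the upper quartile of all gene windows with a line at the median. Mcts2 lies at -51.3, -54.6 and -9.79 points, and Zrsr1 is open at every dose.

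The host genes were taken without the CpGs of the nested window. Mcts2 and its host H13, a signal peptide peptidase, were both methylated: the rest of H13 had 61.4% and 66.1% in DMSO, 21.2% and 21.8% at 0.2 µM, and 61.5% and 47.6% at 10 µM. H13 fell by 42.2 points at 0.2 µM (limma-moderated adjusted p = 0.000208) and by 16.5 points at 2 µM (0.0294), and it was 33.0 points higher at 10 µM than at 0.2 µM (0.00209). The rest of Trappc9, a subunit of a vesicle trafficking complex and host of Peg13, had 24.7% and 30.7% in DMSO. It fell by 13.0 points at 0.2 µM (0.00163), and 10 µM lay 15.3 points above 0.2 µM (0.00231).

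The other hosts were low. Herc3, a ubiquitin ligase around Nap1l5, had 4.15% and 5.74% in DMSO, and Blcap, around Nnat, had 6.45% and 3.87%. Commd1, a regulator of copper handling around Zrsr1, had 2.79% and 10.1%. The outer Commd1 promoter, at chr11:22982235-22982534, had 2.35% ± 1.39 (SD, n = 2) over 12 CpGs, and the Blcap promoter, at chr2:157566312-157566611, had 0.795% ± 0.413 over 16 CpGs. Commd1 fell by 5.77 points at 0.2 µM (adjusted p = 0.0267), and no other change of these 3 hosts against DMSO passed. Of the 5 hosts, 3 were thus lower at 0.2 µM, 1 at 2 µM and none at 10 µM by the limma-moderated test. Of all gene windows 48.6%, 33.1% and 6.70% were lower at these doses. The difference between a nested gene and its host was not tested.

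**Figure D5:**
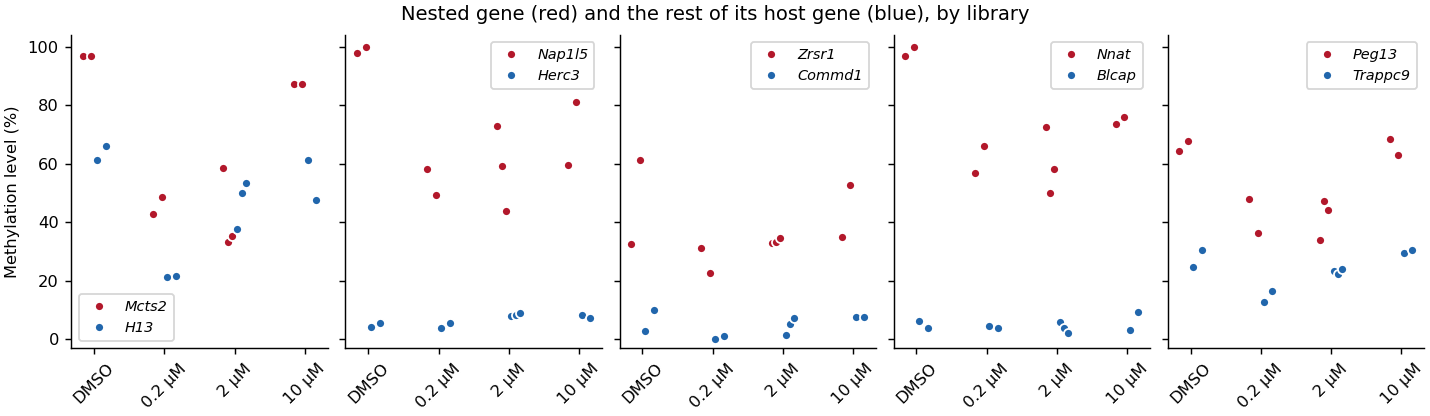
Methylation level in percent (y axis) by group (x axis), with a point per library, for each nested gene in red and the rest of its host in blue. Nap1l5, Zrsr1 and Nnat lie above hosts that stay at 10.1% or under in every library, while H13 and Trappc9 have 61.4% and 24.7% in DMSO replicate 1.

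Mcts2 and Zrsr1 have known X-linked parent genes, and their sequences are alike enough that reads could be shared between copies, which was not tested. Mcts1, the parent of Mcts2, had 16.3% and 17.4% in DMSO over 5 CpGs. Zrsr2, the parent of Zrsr1, had 50.0% and 59.1% over 27 CpGs. No change against DMSO passed for either, with changes from -6.01 to 8.93 points for Mcts1 and -5.32 to 7.84 points for Zrsr2. Both DMSO libraries of Mcts2 lay above those of its parent, a difference that was not tested.

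Other imprinted genes also lay on both sides of 50%. The list was Mest, Peg10, Peg3, Plagl1, Slc38a4, Kcnq1ot1, Airn, Snrpn, Grb10, Inpp5f, Gnas, Igf2r, H19, Meg3 and Rasgrf1. All 15 were tested. Their median DMSO level was 78.6%, from 5.76% to 93.6%, against a median of 97.0% for the nested genes, from 46.9% to 99.0%. From 35% to 65% lay 3 of the 15 and 1 of the 5 nested genes, and at 90% or above 2 of the 15 and 3 of the 5. The difference between the lists was not tested. Nearest to 50% were Rasgrf1, known for methylation of its paternal copy (51.8% ± 1.32, SD, n = 2), and Mest, known for methylation of its maternal copy (40.7% ± 2.25). Farthest were Inpp5f, known for an imprinted transcript that starts within it (5.76% ± 1.08), and Meg3, a non-coding RNA gene (93.6% ± 3.51). Against DMSO, 11 of the 15 were lower with 0.2 µM, 10 with 2 µM and 5 with 10 µM. Of all gene windows 48.6%, 33.1% and 6.70% were lower at these doses, but their median in DMSO was 21.1%, which left less room to fall. Windows of long genes also hold CpGs outside an imprinted region, and Airn and Igf2r share CpGs. Whether a window, such as that of Rasgrf1, holds the imprinted region at all was not checked, so a level near 50% there does not show a kept imprint.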

How the data were processed

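Methylation was measured by RRBS in 9 libraries. Per the submitters' processing notes the build is mm10; the sources used here do not give the aligner, methylation caller or read filters. The authors deposited a table per library with methylated and total reads per CpG as text, and a score, which in each deposited line is the share of methylated reads multiplied by 1000 and cut to a whole number. All listed CpGs within RefSeq promoters fell on CG letters of GRCm38.p6, in all 9 libraries. Left out were 1 to 2 lines of odd width and 18 to 68 repeated positions per library. Reads were summed per gene with 1 kb either side, over CpGs read in every library, and 23220 windows with at least 10 calls in every library were tested. Host windows excluded the nested window.

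Each window got a binomial model with 1 level per group, calls scaled to effective size by a within-window correlation (0.0226 in the class with the fewest calls to 0.00295 in that with the most), and dispersion moderated with limma 3.58.1 in R 4.3.3, floored at 1. P-values were adjusted by Benjamini-Hochberg over all windows, with 0.05 as threshold. A group's level is the mean over its libraries. On simulated data over 23220 windows, 200 were changed by 1.5 log odds per dose. Of them 114 were called for 0.2 µM, 120 for 2 µM and 105 for 10 µM against DMSO, with 0, 2 and 0 unchanged windows. For 10 µM against 0.2 µM 262 of 400 were called, with 2 unchanged. In the data 48.6% of windows were called lower at 0.2 µM, a far larger share than was changed in the simulation. The simulated counts thus cannot tell the share of false calls in these data. Recovery was not split by starting level, so it is not known for windows as high as Mcts2, Nap1l5 and Nnat. The genes, lists and tests were chosen with earlier results of these data known. Named genes are the 5 members, their hosts, 2 X-linked parents and, of the imprinted list, the 2 nearest to and 2 farthest from 50% in DMSO. Alternatives were other read and CpG minimums, no flank, unweighted levels, no scaling, a replicate block and leaving out each library. Runs joined at 50 bases, run-averaged reads and all CpGs of a DMSO library were added after the data were seen.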

Additional observations from a re-analysis of the deposited data

How the results depend on the processing

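Over 87 alternative values per comparison, 83 kept direction and call for the 5 genes at 0.2 µM against DMSO, 81 at 2 µM, 62 at 10 µM and 80 for 10 µM against 0.2 µM. Many of these alternatives could not turn the direction. Window minimums, no scaling and leaving out a library of a group not compared leave the change itself as it was, so they bear on the call alone. With at least 5 reads per CpG, where 3 of the 5 genes were tested, 2, 3 and 0 of them were lower at 0.2, 2 and 10 µM and 0 higher at 10 µM than at 0.2 µM. Of the 18484 windows tested in that setting, 5142, 3793 and 0 were lower than DMSO (2615 at an unadjusted p under 0.05 in the limma-moderated model at 10 µM). In 734 of them 10 µM exceeded 0.2 µM. With unweighted levels and limma 17418, 14832 and 4854 windows were lower, and 0 of the 5 genes at 10 µM (0 unadjusted). Run-averaged reads gave 4506 windows and 1 gene lower at 2 µM, 4 windows and 0 genes at 10 µM, and 0 genes higher at 10 µM than at 0.2 µM. At 10 µM a window minimum of 1 read gave 737 of 28328 windows and 1 gene, and no scaling 2679 windows. The gene without flank gave 1 gene lower and 1 higher than at 0.2 µM, of 4 genes tested. Unweighted levels, run-averaged reads and no scaling were fitted to the same 23220 windows as the main fit.

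With the replicate block 0 windows and 0 of the 5 genes were lower at 10 µM (3773 and 2 at an unadjusted p under 0.05), and 6237 windows were higher than at 0.2 µM. Deviations of same-numbered libraries correlated at -0.0138 to 0.0304 over 9893 windows, and those of differently numbered libraries at -0.0304 to 0.0138. In a group of 2 libraries the deviations are exact opposites, so the second range largely mirrors the first. No shared effect of the number was seen, but whether the samples were paired cannot be told from this. Leaving out 1 library gave 8933 to 11276 windows lower at 0.2 µM, 4875 to 7630 at 2 µM and 0 to 1273 at 10 µM, and 4692 to 9235 higher at 10 µM than at 0.2 µM. The count at 10 µM was 0 without DMSO replicate 1 (3278 unadjusted) or 2 (3076), 113 without replicate 1 of 10 µM, 299 without replicate 2, 836 without replicate 1 of 0.2 µM and 865 without its replicate 2. For the 5 genes the counts were 3 to 5, 4 to 5, 0 to 2 and 1 to 3 in the same order. The change of Zrsr1 ran from -34.2 to -5.65 points at 0.2 µM, -27.5 to 1.07 points at 2 µM and -17.3 to 11.3 at 10 µM, and that of Peg13 at 10 µM from -3.09 to 2.44, with 3.60 without flank and 1.08 unweighted.

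The DMSO distance of Zrsr1 from 50% ran from -17.4 to 11.2 points without 1 library, and was 1.39 with at least 5 reads per CpG and 3.28 unweighted. That of Peg13 was 41.2 with at least 5 reads per CpG and 10.9 without flank. That of Mcts2 was 47.2 with at least 5 reads per CpG, 46.5 unweighted and 47.2 over all CpGs of each DMSO library. The gene body of Mcts2 gave no value without flank, and Nap1l5 none with at least 5 reads per CpG. The minimum of 5 reads left out all 15 CpGs of the lowly methylated stretch of Peg13, where 10 µM replicate 2 had at most 3 reads at a CpG. Its value of 41.2 thus describes only a part of the main window. The cause of the other shifts was not tested. Depth limits all 5 genes: the median CpG had 1 read in at least 1 library in 4 of them.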
